A study of Mus musculus with 45 samples.

Results

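Mouse embryonic fibroblasts that had expressed MyoD for 10 days together with the small molecules labelled F/R/C (3 libraries) were compared with fibroblasts that had expressed MyoD alone for as long (3 libraries). These are 6 of the 45 libraries of the series. The members were chosen by their titles, and the libraries of both groups were paired by replicate number. Every library of both groups carries the genotype labelled Tg:Pax7-nGFP/C57BL6;DBA2, that is, a nuclear GFP reporter of Pax7, and a MyoD that doxycycline (Dox) switches on. Group MyoD was treated with Dox and is labelled as myotubes, and group MyoD + F/R/C was treated with Dox and F/R/C and is labelled as muscle fibers and progenitor cells. The cells were not sorted, the labels do not name the promoter of the MyoD transgene or the age of the embryos, and reads of the transgene and of the cells' own Myod1 were not separated. The labels do not spell out F/R/C; in published work on these cells it stands for forskolin, which raises cyclic AMP, RepSox, which blocks the type I receptor of TGF-beta, and an inhibitor of the kinase GSK3, which turns on Wnt signalling. The study asked how the small molecules change the route from fibroblast to muscle, with day 10 as the last day at which both arms were sampled.

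MyoD is a basic helix-loop-helix transcription factor that binds E-boxes and can turn fibroblasts into myotubes, the multinucleated cells that carry sarcomeres. In adult muscle new fibers come from satellite cells, which are marked by the transcription factor Pax7 and held as progenitors in part by Notch signalling; Myf5 and MyoD mark committed myoblasts, and Myog, Myf6 and the Mef2 factors mark their differentiation. Differentiating cells leave the cell cycle, express embryonic and neonatal myosins first and adult fast or slow myosins later, and lose the matrix and contractile genes of fibroblasts. TGF-beta and myostatin restrain muscle differentiation, and follistatin binds and blocks myostatin and activins.

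The 6 libraries held from 18.8 to 28.2 M estimated reads. Nothing in the labels says that the 3 libraries of a group came from separate animals or cultures. The p-values therefore measure only the spread between libraries, which may in part be technical. That spread was estimated over the 33 libraries of starting fibroblasts and all days fitted together, not over these 6 alone. The libraries numbered 3 and the others cannot all be repeats of 1 source, since they differed in sex-linked genes. Xist was between 294 and 695 CPM (counts per M reads, after scaling for composition) in the 4 libraries numbered 1 or 2 and at or under 0.101 CPM in both numbered 3. Conversely, 4 Y-linked genes summed to 156 and 160.5 CPM in the libraries numbered 3 and to at most 0.602 CPM in the others. A MyoD-alone library, number 2, stood apart in muscle and cycle genes. Its sarcomere scaffold genes summed to 39720 CPM against 20910 and 13750 CPM in its replicates. Its mitosis and replication genes summed to 211.6 CPM against 927.5 and 878.6 CPM. For several results below, the value without this library is given as well. In bulk RNA a difference in a gene cannot be told apart into more cells of a type and more RNA per cell.

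Of 16688 genes tested, 2214 (13.3%) were called higher with F/R/C on day 10 and 2451 (14.7%) lower, 28.0% in either direction. Every count of called list members below is to be read beside these shares. A call is an adjusted p under 0.05 with a log2 fold change of at least 1 in size. Log2 changes are F/R/C minus MyoD alone and are followed by ± their standard error (SE); values given as without F/R/C are those of MyoD alone. Adjusted p-values are those of edgeR's quasi-likelihood test with Benjamini-Hochberg adjustment over all genes tested. The median log2 fold change over all genes tested was 0.0036. The lowest of the 3 F/R/C libraries exceeded the highest MyoD-alone library in 24.2% of genes, and the reverse held in 24.1%. A lack of overlap in a named gene is to be read beside these shares.

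**Figure D1:**
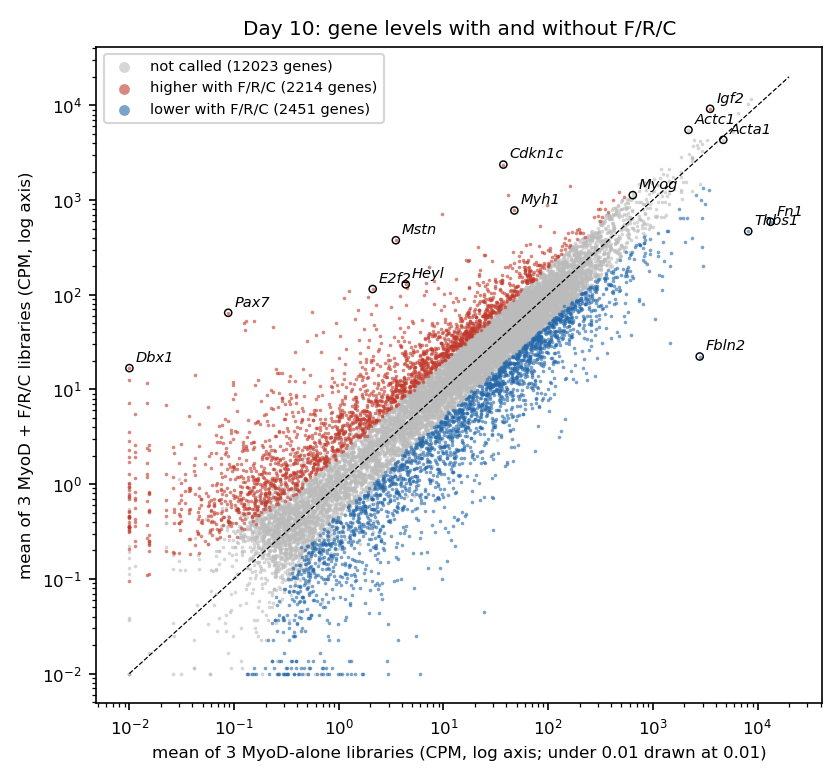
Mean level of each tested gene in the 3 MyoD-alone libraries (x axis, CPM, log scale) against the 3 MyoD + F/R/C libraries (y axis, CPM, log scale) on day 10, with means under 0.01 drawn at 0.01 and the dashed line at equal levels. The 2214 genes called higher and the 2451 called lower are coloured; the progenitor gene Pax7 and the growth inhibitor gene Mstn lie far above the line, the matrix gene Fbln2 far below it, and the sarcomeric actin Acta1 beside it.

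In the list of progenitor transcription factors and Notch genes, 11 of 26 genes were called higher with F/R/C, 1 lower and 14 neither, against 13.3% of all genes called higher, with a list median log2 fold change of 0.83. Pax7 (chromosome 4, 139737062 to 139833528, GRCm38) measured 78.3, 69.7 and 45.5 CPM with F/R/C and 0.0446, 0.185 and 0.0337 CPM without, the latter from 1, 4 and 1 reads. No library of either group came near the other, and the difference was large (log2 change 9.65 ± 0.74, adjusted p = 3.0e-09). Myf5, which marks committed myoblasts, measured 1.97, 3.499 and 5.31 CPM with F/R/C and had no read in the 3 MyoD-alone libraries, so that it was at least 25.9-fold higher on a floor of 3 reads per library (adjusted p = 9.7e-07). Its highest level, 5.31 CPM, was far below that of Pax7. Pax3, the paralogue of Pax7 in the embryo, stayed at or under 0.405 CPM in all 6 libraries (log2 fold change -1.52, adjusted p = 0.070).

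The Notch genes that moved were receptors, a ligand and a target. The target Heyl measured 174, 127 and 85.3 CPM with F/R/C and 6.202, 5.61 and 1.28 CPM without (log2 change 4.91 ± 0.57, adjusted p = 2.9e-07). The lowest F/R/C library lay far above the highest MyoD-alone library. The receptor Notch3 measured 326, 229 and 206 CPM with F/R/C and 70.7, 31 and 57.2 CPM without (log2 change 2.31 ± 0.30, adjusted p = 1.3e-06). Notch1 measured 214, 230.4 and 143 CPM with F/R/C and 60.2, 31.3 and 66.6 CPM without (log2 change 1.95 ± 0.36, adjusted p = 7.8e-05). The ligand Dll1 measured 51.8, 51.2 and 35.01 CPM with F/R/C and 3.703, 7.97 and 2.22 CPM without (log2 change 3.38 ± 0.36, adjusted p = 8.2e-08). Notch2, the ligands Jag1, Jag2 and Dll4, and Rbpj, the DNA-binding partner of all Notch receptors, were not called, with log2 fold changes of 0.01, -0.06, 0.56, 1.54 and 0.65. Hes1, another Notch target, was slightly lower in every F/R/C library than in any MyoD-alone library but under the fold threshold (log2 change -0.69 ± 0.16, adjusted p = 0.0011).

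Six4, Eya1 and Eya2, factors that act together upstream of the myogenic regulators, were all called higher. Eya2, a transcriptional cofactor, measured 13.7, 11.4 and 7.22 CPM with F/R/C and 0.803, 1.07 and 0.101 CPM without (log2 change 4.11 ± 0.64, adjusted p = 1.1e-05). Six4 and Eya1 rose with log2 fold changes of 1.51 and 1.24. None of the 3 overlapped between groups, as held upwards for 24.2% of all genes. Eya4 was not called (log2 change 0.83 ± 0.31, adjusted p = 0.025). Bhlhe41, a repressor of the clock family, was the only member of the list called lower (log2 change -1.70 ± 0.32, adjusted p = 0.00011). Its log2 change was -1.11 without the pair numbered 2 and -2.59 without the pair numbered 3.

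Surface genes of satellite cells did not move together: of 16 tested, 3 were called higher and 6 lower, and the median was -0.03. Fgfr4, a fibroblast growth factor receptor of myogenic cells, rose from 4.46, 10.5 and 6.98 CPM to 196, 224 and 174 CPM (log2 change 4.87 ± 0.41, adjusted p = 4.1e-09). The chemokine receptor Cxcr4 rose from 0.268, 0.8803 and 0.0674 CPM to 5.88, 3.35 and 8.07 CPM (log2 change 4.13 ± 0.78, adjusted p = 0.00011). In the opposite direction, the lectin gene Chodl fell to 0.864, 1.5 and 0.443 CPM from 8.03, 13.9 and 3.13 CPM (log2 change -3.09 ± 0.50, adjusted p = 1.8e-05). Vcam1, an adhesion molecule, fell to 65.4, 18.8 and 19.4 CPM from 227, 103 and 329 CPM (log2 change -2.72 ± 0.53, adjusted p = 0.00015). The integrin chain Itgb1 and the HGF receptor Met also fell, with log2 fold changes of -1.56 and -1.38. Cdh15 (M-cadherin) was higher in every F/R/C library than in any MyoD-alone library, 902, 911 and 650.2 against 317, 631 and 291 CPM, yet missed the threshold (adjusted p = 0.12). Calcr, a receptor of quiescent satellite cells, had at most 7 reads in any library and was not tested.

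**Figure D2:**
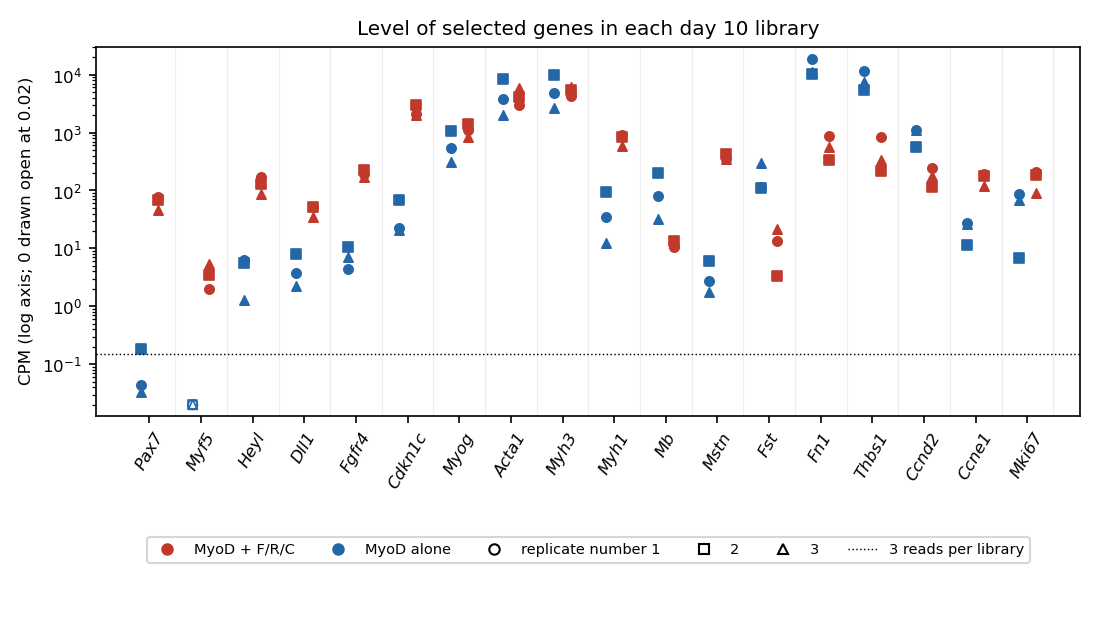
Level of 18 genes in each of the 6 day 10 libraries (y axis, CPM, log scale; red MyoD + F/R/C, blue MyoD alone; symbol shapes give the replicate number, open symbols at 0.02 mark libraries with no read, and the dotted line marks 3 reads per library). Pax7, Heyl, Dll1, Fgfr4, Cdkn1c, Myh1 and Mstn separate the groups upwards, Mb, Fst, Fn1, Thbs1 and Ccnd2 downwards, and Acta1 and Myh3 overlap.

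Among 20 tested genes of differentiation and fusion 2 were called higher and 5 lower (median -0.32). Without the pair numbered 3 these counts were 1 and 9 (median -0.76), and without the pair numbered 2 they were 1 and 4 (median -0.07). Myod1 measured 628, 1019 and 749.8 CPM with F/R/C and 715, 1892 and 602 CPM without and overlapped between the groups (log2 change -0.30 ± 0.48, adjusted p = 0.61); these reads include any that came from the transgene. Myog measured 1124, 1428 and 830.3 CPM with F/R/C and 536, 1079.9 and 316 CPM without and was not called (log2 change 0.87 ± 0.59, adjusted p = 0.21). Myf6 (Mrf4), the myogenic factor of mature fibers, stood out with 20.5, 33.1 and 47.3 CPM with F/R/C and 1.07, 1.99 and 1.62 CPM without (log2 change 4.42 ± 0.34, adjusted p = 1.9e-09). Of the fusogens, Mymk measured 415, 606 and 561 CPM with F/R/C and 546, 1116 and 451 CPM without. Mymx measured 61.1, 96.5 and 70.1 CPM with F/R/C and 43.9, 62.8 and 40.9 CPM without. Neither was called, with log2 fold changes of -0.35 and 0.61. Among the genes called lower, Myof, which acts in membrane fusion, fell by 1.80 and the calcium protease Capn3 by 1.75 on the log2 scale. The adhesion gene Jam2 fell from 154, 224 and 95.2 CPM to 23.98, 35.7 and 31.1 CPM (log2 change -2.35 ± 0.25, adjusted p = 7.6e-08). Its relative Jam3 rose (log2 change 1.05 ± 0.16, adjusted p = 8.3e-06), but the call was lost without MyoD-alone library 3 (0.86) or without F/R/C library 2 (0.90).

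Of 9 sarcomeric myosin heavy chains tested, Myh1, Myh4, Myh6 and Myh13 were called higher and none lower. Without the pair numbered 3 the counts were 3 higher and 1 lower, and without the pair numbered 2 they were 5 and 0. Embryonic Myh3 measured 4260.1, 5412 and 6041 CPM with F/R/C and 4827, 9989.7 and 2651 CPM without and overlapped (log2 change -0.02 ± 0.89, adjusted p = 0.98). Neonatal Myh8 overlapped as well (1986, 3292 and 4611 CPM with F/R/C and 1935, 5109 and 1810.1 CPM without, log2 change 0.27 ± 0.62, adjusted p = 0.73). Myh1, the adult fast IIX isoform, measured 906, 838 and 585 CPM with F/R/C and 34.98, 95.6 and 12.2 CPM without (log2 change 4.29 ± 0.55, adjusted p = 1.1e-06). All 3 F/R/C libraries were high and all 3 MyoD-alone libraries low, without overlap. Myh4, the adult fast IIB isoform, measured 143, 108 and 408 CPM with F/R/C and 59.6, 73.5 and 53.3 CPM without (log2 change 1.69 ± 0.44, adjusted p = 0.0024). Its level in F/R/C library 3 was the highest. Without that library the log2 fold change was 1.05, and without the pair numbered 3 it was 0.79 and not called. Cardiac Myh6 measured 17.9, 51.6 and 38.1 CPM with F/R/C and 1.38, 9.92 and 0.6404 CPM without (log2 change 3.62 ± 0.72, adjusted p = 0.00024). Myh13 was at most 1.44 CPM (log2 change 3.26 ± 0.56, adjusted p = 5.2e-05). Slow Myh7 was not called, at 385, 556 and 338 CPM with F/R/C and 595, 1701 and 244 CPM without (log2 change -0.77 ± 0.41, adjusted p = 0.11), nor was the adult fast IIA isoform Myh2 (log2 change 0.68 ± 0.27, adjusted p = 0.034). These genes are near-identical copies and the deposited counts divide shared reads between them by estimation, so the split between isoforms is uncertain.

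On the scale of TPM, which takes transcript length into account, Myh3 held 49.9% ± 2.31 (SD, n = 3) of all sarcomeric myosin heavy chain transcripts with F/R/C and 56.5% ± 4.09 with MyoD alone. Myh1 held 11.3%, 7.78% and 4.74% in the 3 F/R/C libraries and 0.481%, 0.552% and 0.242% in the MyoD-alone libraries, without overlap. The family's total was 2532, 3270.0 and 4039 TPM with F/R/C and 2541, 5614 and 1657 TPM with MyoD alone. The MyoD-alone totals were widely spread, and library 2 lay above and library 3 below every F/R/C library. Between the sarcomeric actins, cardiac Actc1 held 57.5%, 57.1% and 45.1% with F/R/C and 29.8%, 26.3% and 33.9% with MyoD alone, the rest being skeletal Acta1. In CPM, Acta1 overlapped (2983, 4149 and 5842 CPM with F/R/C and 3821, 8293 and 2014 CPM without, log2 change 0.00 ± 0.35, adjusted p = 1.00), with a log2 change of 0.42 without MyoD-alone library 2. Actc1 did not overlap (4631, 6364 and 5516 CPM with F/R/C and 1894, 3469.9 and 1210.3 CPM without) but was not called (log2 change 1.40 ± 0.81, adjusted p = 0.15).

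**Figure D3:**
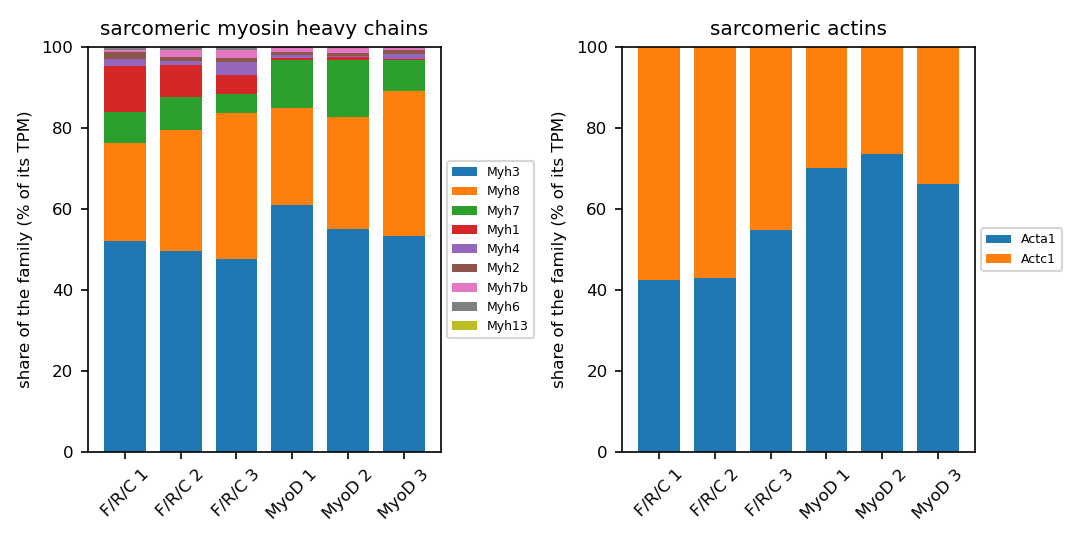
Share of each gene in the summed TPM (transcripts per M transcripts) of its family in each day 10 library, as stacked bars from 0 to 100%. In the left panel Myh1 (red) is a visible band in the 3 F/R/C libraries and at most 0.552% in the MyoD-alone libraries; in the right panel Actc1 (orange) takes 45.1% to 57.5% with F/R/C and 26.3% to 33.9% without.

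The rest of the contractile apparatus overlapped for most genes. Among 16 troponins and light chains, 1 was called higher and 3 lower, and among 38 scaffold genes of the sarcomere 3 were called higher and 7 lower (medians -0.14 and -0.33). Lower calls made up 18.8% of the former list and 18.4% of the latter, against 14.7% of all genes. Higher calls made up 6.25% and 7.9%, against 13.3%. Without MyoD-alone library 2 the medians were 0.25 and -0.0019, and the counts were 1 higher and 1 lower in the former list and 5 higher and 3 lower in the latter. The giant proteins Ttn and Neb had log2 fold changes of 0.17 and -0.41, alpha-actinin Actn2 0.44, desmin Des 0.24 and the troponins Tnnt1, Tnnt3 and Tnni1 0.09, -0.24 and -0.16, none of them called. Of the called genes, Myoz1, a Z-disc protein of fast fibers, measured 27.4, 34.99 and 146 CPM with F/R/C and 0.848, 2.55 and 1.15 CPM without (log2 change 5.35 ± 0.49, adjusted p = 1.3e-08). Csrp3, a mechanosensing Z-disc protein, measured 25.4, 39.9 and 94.6 CPM with F/R/C and 228, 509 and 129 CPM without (log2 change -2.30 ± 0.48, adjusted p = 0.00030). Xirp2, which binds actin filaments at cell junctions, measured 40.7, 20.8 and 32.1 CPM with F/R/C and 248, 693 and 41.5 CPM without (log2 change -2.54 ± 0.64, adjusted p = 0.0017). The counts in these lists turned on single pairs. Without the pair numbered 3 the scaffold list had 1 gene higher and 16 lower, and without the pair numbered 2 it had 5 higher and 1 lower. Xirp2 was not called without the pair numbered 2 (log2 fold change -1.42). Without the pair numbered 3 Xirp2 stood at -3.89 and Csrp3 at -3.53.

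Excitation-contraction coupling gave 4 genes higher and 1 lower of 20, or 20% and 5%, against 13.3% and 14.7% of all genes. Casq1, the calcium store protein of fast fibers, measured 136, 159.9 and 387 CPM with F/R/C and 28.1, 47.1 and 12.9 CPM without (log2 change 3.09 ± 0.43, adjusted p = 3.2e-06), with a smaller difference of 1.89 without the pair numbered 3. Pvalb, the calcium buffer of fast fibers, measured 2.88, 2.699 and 10.8 CPM with F/R/C and had 1 read in all 3 MyoD-alone libraries together (adjusted p = 1.3e-07). Sln, an inhibitor of the calcium pump, and Ryr3, a second release channel, rose with log2 fold changes of 1.91 and 1.92. The main release channel Ryr1 (0.06), the voltage sensor Cacna1s (-0.88) and the pump Atp2a1 (0.98) were not called.

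At the synapse only acetylcholinesterase (Ache) was called among 11 genes tested, at 20.7, 19.4 and 57.1 CPM with F/R/C and 3.61, 5.98 and 3.101 CPM without (log2 change 2.87 ± 0.58, adjusted p = 0.00024). The fetal receptor chain Chrng and the receptor kinase Musk were not (0.65 and 0.53 on the log2 scale). In the dystrophin complex 1 of 11 genes was higher, the laminin chain Lama2 (log2 change 1.34 ± 0.24, adjusted p = 7.6e-05), and 2 were lower, the sarcoglycans Sgca (log2 change -1.39 ± 0.28, adjusted p = 0.00025) and Sgcd (log2 change -1.26 ± 0.29, adjusted p = 0.00088). Neither sarcoglycan was called without the pair numbered 2 (-0.96 and -0.87), nor was Sgcd without F/R/C library 2 (-0.98). Lama2 was not called without the pair numbered 3 (0.90), and without that pair 7 genes of the complex were lower. Without the pair numbered 2 the complex had 1 gene higher and 0 lower. In energy metabolism 2 of 19 genes were higher and 1 lower (10.5% and 5.3%, against 13.3% and 14.7% of all genes). The oxygen store myoglobin (Mb) measured 10.4, 13.5 and 12.3 CPM with F/R/C and 79.6, 204 and 32.2 CPM without (log2 change -2.84 ± 0.33, adjusted p = 5.3e-07). Its MyoD-alone values were widely spread and all lay above the highest F/R/C value. The muscle creatine kinase Ckm overlapped (-0.16). Without the pair numbered 3, 7 genes of this list were lower and none higher. Without the pair numbered 2, 4 were higher and 1 lower, and without MyoD-alone library 2 alone, 3 were higher and 1 lower.

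Genes of mitosis and DNA replication were higher with F/R/C: 22 of 24 were called higher and none lower, with a median log2 fold change of 1.82, against 13.3% of all genes. Mki67, a marker of cycling cells, measured 209.8, 183 and 89.6 CPM with F/R/C and 85.3, 6.904 and 69.4 CPM without (log2 change 1.88 ± 0.58, adjusted p = 0.0088). Every F/R/C library was above every MyoD-alone library, but F/R/C library 3 was only just above MyoD-alone library 1. Top2a, which untangles sister chromosomes, followed the same order of libraries (315, 259 and 129.9 CPM with F/R/C and 98.7, 8.76 and 86.5 CPM without, log2 change 2.12 ± 0.59, adjusted p = 0.0038). The size of the count rested on number 2: without MyoD-alone library 2 it was 14 of 24, without F/R/C library 2 it was 13 and without both it was 8. In a fit of the 6 libraries alone with the replicate block it was 6. All 24 genes had a positive log2 change in the fit of 33 libraries. Ccne1 (cyclin E1, which acts at the entry into S phase) measured 194, 178 and 119 CPM with F/R/C and 26.9, 11.3 and 26.9 CPM without (log2 change 3.00 ± 0.27, adjusted p = 9.8e-09). The activator E2f2 measured 129, 134 and 82.1 CPM with F/R/C and 2.05, 2.46 and 1.82 CPM without (log2 change 5.83 ± 0.56, adjusted p = 2.3e-08), while E2f1 overlapped (0.15). Leaving out MyoD-alone library 2 left Ccne1 at 2.74 and E2f2 at 6.06 on the log2 scale, both still called. Mki67 was not called without it (1.32), nor without F/R/C library 2 (1.36). Top2a lost its call only with both libraries numbered 2 left out (1.25) and in the fits of the 6 libraries alone.

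Because the mitotic genes moved together, the upstream sequence of Mki67 and Top2a is shown, from RefSeq (GRCm38.p6), with the 6-letter motif TTTGAA of the cell cycle homology region, searched on both strands (TTCAAA on the other), in capitals. The windows are 7:135716380-135716629 and 11:99024190-99024439, both on the minus strand and written 5′ to 3′ up to the base before the start of the gene.
Mki67: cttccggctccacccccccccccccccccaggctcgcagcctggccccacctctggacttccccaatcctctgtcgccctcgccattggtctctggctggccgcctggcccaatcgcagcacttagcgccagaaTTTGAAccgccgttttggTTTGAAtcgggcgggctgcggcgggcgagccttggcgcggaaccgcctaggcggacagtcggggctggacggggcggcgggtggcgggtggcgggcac
Top2a: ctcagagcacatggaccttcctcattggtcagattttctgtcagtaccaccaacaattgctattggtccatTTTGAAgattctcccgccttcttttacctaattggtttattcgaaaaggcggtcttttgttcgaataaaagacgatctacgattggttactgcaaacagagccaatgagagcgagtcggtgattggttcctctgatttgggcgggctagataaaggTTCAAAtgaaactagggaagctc
Each window held 2 matches. A match was found in 6 of the 20 promoters of the list that are in the table, and in 16.3% of all 27025 promoters over 250 bases, where 1 promoter was taken for each gene. These are counts of letters and were not tested.

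Inhibitors and D cyclins moved in both directions, 4 of 13 higher and 3 lower. Cdkn1c (p57, an inhibitor of cyclin-dependent kinases; chromosome 7, 143458339 to 143461050) measured 2096, 3025 and 1984 CPM with F/R/C and 22.3, 68.9 and 20.8 CPM without (log2 change 6.03 ± 0.55, adjusted p = 1.2e-08). Cdkn1a (p21), the inhibitor that MyoD itself induces, was lower in all F/R/C libraries but under the fold threshold (619, 761 and 646 CPM with F/R/C and 962, 1344 and 862 CPM without, log2 change -0.63 ± 0.13, adjusted p = 0.00030). Ccnd1 and Ccnd2, the D cyclins of proliferating cells, fell. Ccnd2 went from 1124, 563 and 1090.3 CPM to 245, 114 and 178 CPM (log2 change -2.38 ± 0.30, adjusted p = 8.3e-07), and Ccnd1 fell by 1.64 on the log2 scale. Ccnd3, the D cyclin of differentiating muscle, rose from 361, 507 and 376 CPM to 982, 972 and 1046 CPM (log2 change 1.28 ± 0.17, adjusted p = 1.6e-06).

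Matrix genes fell by the largest amounts of RNA. Of 25 matrix glycoproteins and proteoglycans 14 were called lower and 7 higher (median -1.36). Their summed level was 2539 to 5231 CPM with F/R/C against 23880 to 48460 CPM with MyoD alone. Fibronectin (Fn1, chromosome 1, 71585520 to 71653200) measured 866, 332 and 569 CPM with F/R/C and 18521, 10287 and 11204 CPM without (log2 change -4.54 ± 0.45, adjusted p = 3.8e-08). Fbln2, a fibulin that links elastic fibers, measured 26.7, 10.3 and 29.9 CPM with F/R/C and 3887, 1798 and 2725 CPM without (log2 change -6.98 ± 0.46, adjusted p = 2.3e-10). Thrombospondin Thbs1, which activates latent TGF-beta, measured 855, 214 and 334 CPM with F/R/C and 11597, 5459 and 7407 CPM without (log2 change -4.28 ± 0.49, adjusted p = 2.1e-07). The cross-linking enzyme Lox measured 26.7, 12.2 and 33.9 CPM with F/R/C and 497, 345 and 265 CPM without (log2 change -3.95 ± 0.36, adjusted p = 1.1e-08). None of these 4 overlapped, as held downwards for 24.1% of all genes. The 7 higher genes were Fbln1, Eln, Fbn2, Postn, Dcn, Lum and Ogn. Ogn (osteoglycin) measured 177, 241 and 176 CPM with F/R/C and 37.7, 44.8 and 33.3 CPM without (log2 change 2.36 ± 0.32, adjusted p = 1.8e-06). Fbn2, the fetal fibrillin, rose from 14.7, 10.8 and 13.9 CPM to 117, 88.7 and 70.5 CPM (log2 change 2.84 ± 0.30, adjusted p = 1.0e-07) while the adult form Fbn1 fell (log2 change -1.38 ± 0.24, adjusted p = 5.4e-05). Dcn and Lum overlapped between the groups, with MyoD-alone library 3 well above its replicates. Dcn was not called without the pair numbered 1 (2.03) and larger without MyoD-alone library 3 (4.43).

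Among 18 collagens 8 were called lower and 6 higher. The fibrillar chains Col1a1 (log2 change -1.85 ± 0.31, adjusted p = 2.7e-05), Col1a2 (log2 change -2.65 ± 0.34, adjusted p = 9.3e-07) and Col5a2 (log2 change -3.24 ± 0.29, adjusted p = 7.3e-09) fell, and Col3a1 was not called (-0.19 on the log2 scale, adjusted p = 0.71). Col11a1 fell from 191, 63.3 and 51.7 CPM to 4.11, 5.398 and 8.21 CPM (log2 change -3.76 ± 0.45, adjusted p = 3.8e-07). Col6a1, Col6a2 and Col6a3, the chains of the microfibrillar collagen that surrounds muscle fibers, rose with log2 fold changes of 1.37, 2.47 and 1.10. Without the replicate block Col6a1 and Col6a3 were not called (1.31 and 0.86). Col6a3 lost its call without MyoD-alone library 2 (0.68 on the log2 scale), F/R/C library 1 (1.10) or F/R/C library 2 (1.07). The basement membrane chain Col15a1 rose from 17.4, 6.95 and 25.3 CPM to 218, 191 and 284 CPM (log2 change 3.95 ± 0.61, adjusted p = 1.1e-05). Proteases and their inhibitors gave 2 higher and 6 lower of 18. The inhibitors Timp1 (log2 change -3.84 ± 0.33, adjusted p = 4.6e-09) and Timp2 (log2 change -2.49 ± 0.28, adjusted p = 2.0e-07) fell. Mmp9, a gelatinase, was higher, at 69.2, 4.05 and 39.6 CPM with F/R/C and 0.535, 0.649 and 0.6404 CPM without (log2 change 5.84 ± 0.81, adjusted p = 2.7e-06).

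Contractile genes of smooth muscle and myofibroblasts were called lower in 9 of 14 cases and higher in none (median -1.12). Tagln measured 253, 108 and 106 CPM with F/R/C and 2127, 624 and 891 CPM without (log2 change -2.93 ± 0.42, adjusted p = 4.7e-06). Cald1, which binds actin and myosin, measured 318, 147 and 208 CPM with F/R/C and 1729, 748 and 1378 CPM without (log2 change -2.52 ± 0.33, adjusted p = 1.5e-06). Acta2, the marker of myofibroblasts, also fell (1428, 1219 and 779.8 CPM with F/R/C and 4376, 1731 and 1614 CPM without, log2 change -1.11 ± 0.27, adjusted p = 0.0013). MyoD-alone library 1 was the highest for Tagln and Acta2. Without it 4 of the 14 genes were called, Tagln among them (-2.62) and Acta2 not (-0.73).

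General fibroblast markers were mixed, 6 of 17 lower and 3 higher. Thy1 measured 165, 45.7 and 264 CPM with F/R/C and 632, 183 and 1079 CPM without (log2 change -1.99 ± 0.40, adjusted p = 0.00020). Ly6a, a surface antigen, measured 22.6, 3.299 and 13.5 CPM with F/R/C and 99.5, 53.01 and 293 CPM without (log2 change -3.63 ± 0.61, adjusted p = 2.8e-05). The calcium-binding protein gene S100a4 measured 20.1, 6.25 and 20.7 CPM with F/R/C and 128, 101 and 269 CPM without (log2 change -3.44 ± 0.39, adjusted p = 2.1e-07). The mesenchymal receptors Pdgfra and Pdgfrb overlapped (0.72 and 0.22). Fap, a surface protease of activated fibroblasts, was higher with F/R/C, at 26.6, 32.3 and 29.9 CPM with F/R/C and 3.17, 1.11 and 4.96 CPM without (log2 change 3.50 ± 0.46, adjusted p = 1.5e-06). The list summed to 578 to 1097 CPM with F/R/C and 1065 to 3589 CPM with MyoD alone, so both arms held fibroblast transcripts. Their part in the other differences was not tested.

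Genes of the TGF-beta pathway were lower: 10 of 17 were called lower and 1 higher, with a median of -1.54. Direct targets were lower without overlap, a separation seen downwards in 24.1% of all genes. Ccn2, a matricellular protein, measured 100.5, 29.7 and 38.1 CPM with F/R/C and 1823, 833 and 517 CPM without (log2 change -4.24 ± 0.61, adjusted p = 4.2e-06). The inhibitory Smad7 measured 8.02, 4.05 and 9.195 CPM with F/R/C and 88.3, 66.9 and 51.8 CPM without (log2 change -3.24 ± 0.36, adjusted p = 1.7e-07). The feedback inhibitor Pmepa1 measured 17.9, 13.05 and 31.4 CPM with F/R/C and 251, 248 and 164 CPM without (log2 change -3.42 ± 0.26, adjusted p = 1.6e-09). Among ligands, Tgfb1 fell from 82.8, 49.6 and 62.6 CPM to 10.4, 6.45 and 17.9 CPM (log2 change -2.50 ± 0.23, adjusted p = 1.1e-08) and Tgfb2 rose (log2 change 1.18 ± 0.28, adjusted p = 0.00095). The call of Tgfb2 was lost without MyoD-alone library 3 (1.00) or F/R/C library 3 (0.97). The latency proteins Ltbp1, Ltbp2 and Ltbp3, which hold TGF-beta in the matrix, fell with log2 fold changes of -1.79, -3.99 and -1.54. The receptors Tgfbr1, Tgfbr2 and Tgfbr3 were not called (0.91, -0.37 and -0.26).

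In the myostatin branch the ligand rose and its inhibitors fell. Myostatin (Mstn) measured 352, 430.0 and 346 CPM with F/R/C and 2.77, 5.98 and 1.79 CPM without (log2 change 6.87 ± 0.65, adjusted p = 1.9e-08). All 3 MyoD-alone libraries were far below all 3 F/R/C libraries, yet above the floor of 3 reads per library, 0.139 CPM. Follistatin (Fst), which binds myostatin, measured 13.5, 3.299 and 21.6 CPM with F/R/C and 114, 112 and 296 CPM without (log2 change -3.88 ± 0.48, adjusted p = 7.3e-07). Its relative Fstl3 fell from 60.3, 40.6 and 36.2 CPM to 4.73, 2.699 and 8.38 CPM (log2 change -3.08 ± 0.31, adjusted p = 5.4e-08). The activin chain Inhba measured 63.7, 17.99 and 32.1 CPM with F/R/C and 417, 214 and 212 CPM without (log2 change -2.96 ± 0.44, adjusted p = 7.0e-06). Of the receptors, Acvr2a rose (log2 change 1.20 ± 0.12, adjusted p = 4.3e-08) and Acvr2b and Acvr1b were not called (0.71 and -0.78). In the whole list of 10 genes, 3 were higher and 4 lower.

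Mstn and Myog are both muscle genes, of which Mstn was called and Myog was not, so their upstream sequences are shown with every E-box (CANNTG, which reads the same on both strands) in capitals. The sequences come from RefSeq (GRCm38.p6), plus strand, at 1:53061390-53061639 and 1:134289754-134289988, and end at the base before the annotated gene.
Mstn: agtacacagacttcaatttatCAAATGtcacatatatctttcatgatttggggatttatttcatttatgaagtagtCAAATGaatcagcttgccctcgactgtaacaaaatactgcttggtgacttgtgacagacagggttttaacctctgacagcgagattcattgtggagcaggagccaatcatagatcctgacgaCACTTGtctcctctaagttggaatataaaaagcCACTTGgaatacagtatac
Myog: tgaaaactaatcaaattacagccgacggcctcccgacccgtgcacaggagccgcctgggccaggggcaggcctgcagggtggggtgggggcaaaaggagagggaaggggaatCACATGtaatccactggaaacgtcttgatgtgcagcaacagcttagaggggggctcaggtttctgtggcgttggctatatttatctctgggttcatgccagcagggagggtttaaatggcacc
The Mstn window of 250 bases held 4 E-boxes and the Myog window of 235 bases held 1. The Myog window is shorter because its last bases overlapped the annotated gene and were cut off. E-boxes in or across the cut bases were not counted, so the counts of the genes are not to be compared. An E-box is common, present in 66.0% of all 27025 promoters over 250 bases, which were not cut in this way. The match is of letters only, and binding was not measured here.

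The IGF system was higher, 6 of 10 genes called higher and 1 lower (median 1.36). Igf2, the fetal growth factor and the most abundant of these genes, measured 9207, 8773 and 9577 CPM with F/R/C and 3036, 5312 and 2236 CPM without (log2 change 1.45 ± 0.38, adjusted p = 0.0023). Without the pair numbered 3 it was not called (1.05). Igfbp5, the binding protein of differentiating myoblasts, measured 1759, 1132 and 1359 CPM with F/R/C and 120.2, 195 and 171 CPM without (log2 change 3.11 ± 0.53, adjusted p = 3.4e-05). Igfbp2, another binding protein, measured 168, 202 and 184 CPM with F/R/C and 24.4, 29.5 and 12.9 CPM without (log2 change 3.11 ± 0.33, adjusted p = 9.9e-08). Igfbp7 was the lower gene (log2 change -2.70 ± 0.30, adjusted p = 1.4e-07). The receptors Igf1r and Igf2r overlapped (0.19 and 0.10).

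Of 13 Wnt/beta-catenin targets tested, 4 were higher and 2 lower (30.8% and 15.4%, against 13.3% and 14.7% of all genes). Their log2 fold changes were positive in 8 and negative in 5, from -3.23 to 6.09. The 2 lower genes are not named here. Lgr5, a Wnt target and receptor, measured 32.3, 45.7 and 19.7 CPM with F/R/C and 0.58, 0.695 and 0.202 CPM without (log2 change 6.09 ± 0.74, adjusted p = 5.1e-07). Notum, a secreted Wnt inhibitor, rose at low levels (2.92, 1.4 and 2.49 against 0.491, 0.556 and 0.303 CPM, log2 fold change 2.26). Lef1 rose (log2 change 1.52 ± 0.41, adjusted p = 0.0035). Axin2, the feedback target present in most tissues, was higher in all F/R/C libraries but under the threshold (14.3, 12.9 and 13.7 CPM with F/R/C and 7.05, 12.1 and 3.54 CPM without, log2 change 0.92 ± 0.37, adjusted p = 0.037). Of 15 cyclic AMP response genes, 2 were higher and 3 lower (13.3% and 20%, against 13.3% and 14.7% of all genes). The kinase gene Sik1 (log2 change 1.37 ± 0.23, adjusted p = 2.5e-05) and the phosphodiesterase gene Pde4b (log2 change 1.48 ± 0.25, adjusted p = 3.4e-05) rose. The nuclear receptors Nr4a1 and Nr4a2 fell (-1.60 and -2.09). Of 10 FGF receptors and feedback genes none was higher and 3 were lower (30%, against 14.7% of all genes). The feedback genes Dusp6 and Etv5 overlapped (0.20 and 0.26). This list leaves out the receptors Fgfr1 and Fgfr4, which were counted with the surface genes of satellite cells, where Fgfr4 was called higher.

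No gene of the interferon response was called by edgeR out of 7 tested. At an unadjusted p under 0.05, 2 were higher and none lower. DESeq2, edgeR with the size factors of DESeq2, and the edgeR fits without the pair numbered 2, without MyoD-alone library 2 or without F/R/C library 1 each called 1 higher. Among 14 genes of p53 and stress, 3 were lower (21.4%) and none higher, against 14.7% of all genes called lower. Mdm2, a p53 target, fell from 255, 240.0 and 308 CPM to 90.5, 81.4 and 94.5 CPM (log2 change -1.59 ± 0.21, adjusted p = 1.1e-06). Ccng1 fell by 1.37 and the stress factor Ddit3 by 1.57 on the log2 scale. All 3 were without overlap, as held downwards for 24.1% of all genes.

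Several neural homeobox genes were read with F/R/C. Dbx1, a factor of spinal cord interneurons, measured 13.8, 19.4 and 17.2 CPM with F/R/C and had no read in any MyoD-alone library, at least 121-fold higher on the floor of 3 reads. Lhx3, a motor neuron factor, measured 24.6, 11.7 and 1.12 CPM against no read, at least 89.7-fold higher, with F/R/C library 3 far below the other two. Both were called by edgeR (adjusted p = 6.1e-05 and 1.6e-05) and neither by DESeq2. Isl1, En2 and Irx3 were also called higher (2.22, 3.63 and 1.08). The call of Irx3 was lost without MyoD-alone library 3 (0.89) or F/R/C library 1 (0.78), and that of Isl1 without the pair numbered 2 (1.57). Sox2 was called lower and overlapped (log2 change -1.79 ± 0.74, adjusted p = 0.042), but not without MyoD-alone library 3 (-0.24). Lhx9 fell from 6.38, 13.8 and 28.7 CPM to 0.288, 0.2999 and 0.851 CPM (log2 change -5.05 ± 0.61, adjusted p = 5.3e-07). In all, 14 of the 23 genes of this list, among them Olig2, Pax6 and Neurog1, had too few reads to be tested.

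Markers of other cell types were low in both arms. Endothelial markers summed to 5.88 to 17.0 CPM with F/R/C and 8.66 to 10.8 CPM with MyoD alone, with 1 of 7 higher and 2 lower, and Pecam1 under 0.708 CPM in all. Immune markers summed to 10.5 to 19.2 CPM against 6.47 to 11.3 CPM (1 higher, 1 lower of 3), and Ptprc had at most 8 reads. Adipocyte markers summed to 4.95 to 7.49 CPM against 2.64 to 16.9 CPM (none higher, 1 lower of 6), and cartilage and bone markers to 17.2 to 25.5 CPM against 35.1 to 54.2 CPM (none higher, 2 lower of 5). Schwann and glial markers summed to 124.3 to 159 CPM against 83.6 to 174.5 CPM, almost all of it Erbb3, a receptor that myogenic cells share. Foxd3, a neural crest factor, rose to 6.62, 14.8 and 11.99 CPM from 0, 0.0927 and 0.202 CPM (log2 change 6.78 ± 0.60, adjusted p = 1.8e-08), while Sox10 had at most 3 reads. Epithelial markers summed to 6.10 to 11.6 CPM against 4.02 to 21.4 CPM (2 higher, 1 lower of 5). The part of such cells in the results was not tested.

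**Figure D4:**
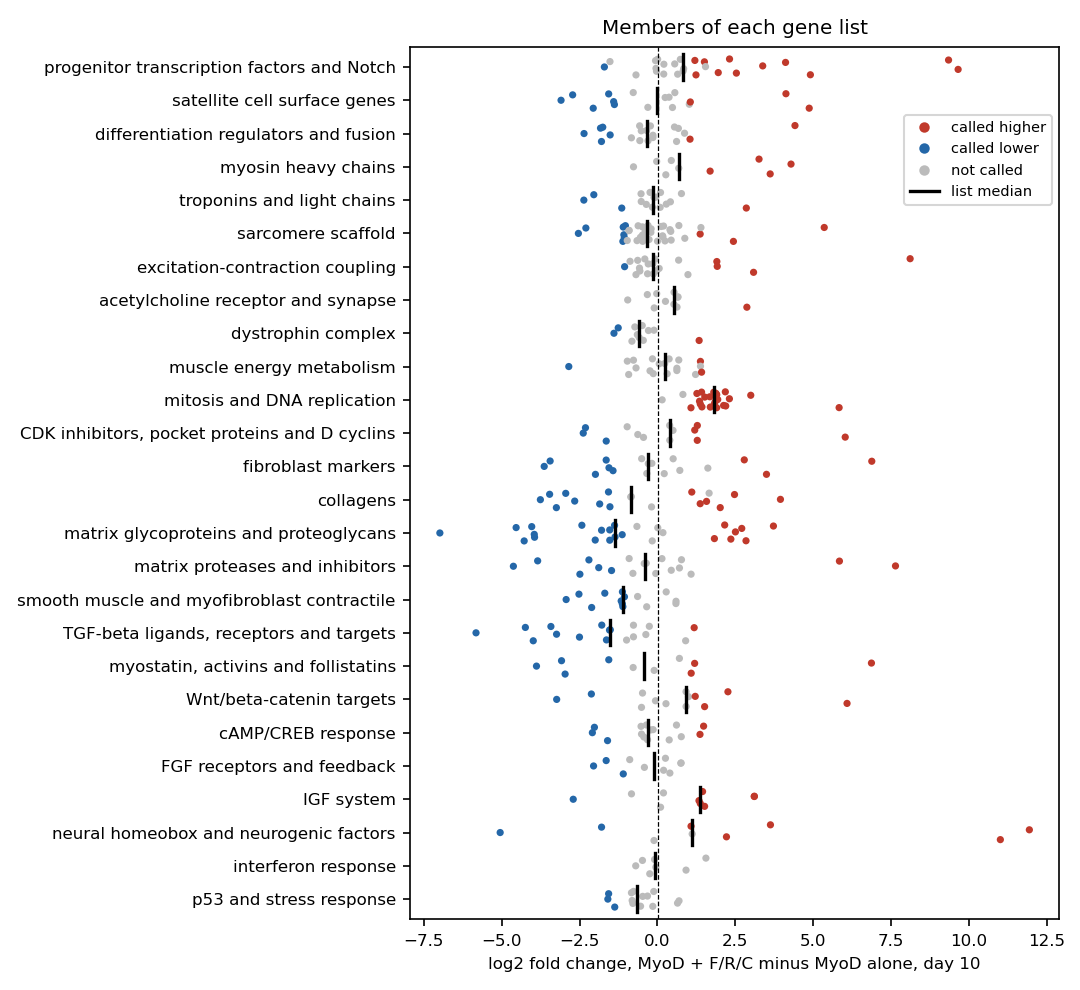
Log2 fold change of each tested member of the gene lists on day 10 (x axis, MyoD + F/R/C minus MyoD alone; red called higher, blue called lower, grey not called; bars are list medians and the dashed line the median of all genes tested). The mitosis list lies wholly to the right with a median of 1.82, the TGF-beta list centres at -1.54, and the sarcomere scaffold list centres at -0.33 with most of its members not called.

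By fitted log2 fold change, the called genes over 10 CPM with the same sign in all 3 pairs were led upwards by Dbx1, Lhx3, Pax7, Pkd2l1, Spon1, P2rx1 and Hif3a. The first places of Dbx1 and Lhx3 rest on fitted values over libraries with no read, and DESeq2 called neither. Their lower bounds, 121-fold and 89.7-fold, would place them below Pax7, Spon1 and P2rx1. Pkd2l1 and Hif3a had at most 2 reads in any MyoD-alone library, and their lower bounds were 83.8-fold and 102-fold. Spon1, a secreted matrix protein of the floor plate, measured 33.9, 73.5 and 43.8 CPM with F/R/C and 0.0892, 0.0463 and 0.236 CPM without (log2 change 8.94 ± 0.69, adjusted p = 1.6e-09). The ATP-gated channel P2rx1 measured 34.4, 55.6 and 67.8 CPM with F/R/C and 0.0446, 0.278 and 0.0674 CPM without (log2 change 8.66 ± 0.69, adjusted p = 4.8e-09). Downwards, Aldh3b3, an aldehyde dehydrogenase, measured 0, 0.09997 and 0.0341 CPM with F/R/C and 11.2, 36.3 and 25.4 CPM without, the former from 0, 2 and 1 reads. The phosphatase Ptprb measured 0.864, 0.04999 and 0.0681 CPM with F/R/C and 47.7, 14.6 and 26.3 CPM without (log2 change -6.53 ± 0.87, adjusted p = 1.7e-06). The choline transporter Slc5a7 measured 0.987, 0.09997 and 1.06 CPM with F/R/C and 33.5, 27.1 and 29.1 CPM without (log2 change -5.43 ± 0.51, adjusted p = 1.9e-08). By amount of RNA, among called genes with the same sign in all 3 pairs, the largest gains after Igf2 and Cdkn1c were in Igfbp5, the inactive calpain Capn6 (838, 1586 and 955 CPM with F/R/C and 26.2, 87.6 and 10.5 CPM without), the imprinted zinc finger gene Plagl1 (941, 1088 and 633 CPM with F/R/C and 57.9, 107 and 128 CPM without) and the membrane protein gene Itm2a (1117, 1191 and 1310.3 CPM with F/R/C and 348, 734 and 334 CPM without). The largest losses by the same rule were in Fn1, Thbs1, Bgn, Fbln2 and Col5a2. Bgn (biglycan) measured 228, 77.5 and 291 CPM with F/R/C and 4407, 1708 and 3022 CPM without (log2 change -3.94 ± 0.35, adjusted p = 8.8e-09).

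The day 10 difference was largely present on day 8. Of the genes called higher on day 10, 1693 were also higher on day 8, which is 76.5% of the 2214 and 81.4% of the 2080 called on day 8 (12.5% of all genes). Of those called lower, 1715 were shared, 70.0% of 2451 and 89.3% of 1920 (11.5% of all genes). The share of day 10 calls already made on day 2 was 19% for higher and 20.0% for lower genes, when 5.24% and 5.35% of all genes were called. The days have no libraries in common, but their calls came from the same fit, with a shared estimate of the spread and a shared replicate block. Their overlap is therefore not one between independent experiments. No gene had a day 10 effect that differed from its day 8 effect by edgeR (smallest adjusted p = 1; 802 genes, 4.81%, at an unadjusted p under 0.05) or by DESeq2 (870 at that level). A miss of the threshold does not show that the effects were the same.

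Means by day give the course of the leading genes. Pax7 with F/R/C had means of 0 CPM on day 2, 0.520 on day 4, 4.44 on day 6, 30.0 on day 8 and 64.5 on day 10, and its mean with MyoD alone was at most 0.0879 CPM. Mstn was 240.1 CPM with F/R/C on day 2, 682 on day 4 and 376 on day 10, and never over 3.51 CPM with MyoD alone. Heyl and Dll1 started high in both arms on day 2, at 53.6 and 41.0 CPM with F/R/C and 80.1 and 72.4 CPM with MyoD alone, and the MyoD-alone means then fell to 4.36 and 4.63 CPM on day 10. Dbx1 reached 16.8 CPM on day 10 from 1.57 CPM on day 8. Mitosis genes were called higher in 2 of 24 cases on day 2, 8 on day 4, 21 on day 6, 23 on day 8 and 22 on day 10, when 5.24%, 10.0%, 11.9%, 12.5% and 13.3% of all genes were called higher. Smooth muscle genes were called lower in 2, 3, 4, 5 and 9 of 14 cases on the same days. They were called higher in 2, 2, 2, 2 and 0. Matrix glycoproteins were called lower in 6, 7, 9, 11 and 14 of 25 cases and higher in 7, 6, 6, 6 and 7. Of all genes, 5.35%, 9.02%, 9.38%, 11.5% and 14.7% were called lower on these days. The TGF-beta list had 8 of 17 lower from day 2 to day 6 and 10 on days 8 and 10. It had 2 higher from day 2 to day 8 and 1 on day 10. Whether these counts differ between days was not tested.

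**Figure D5:**
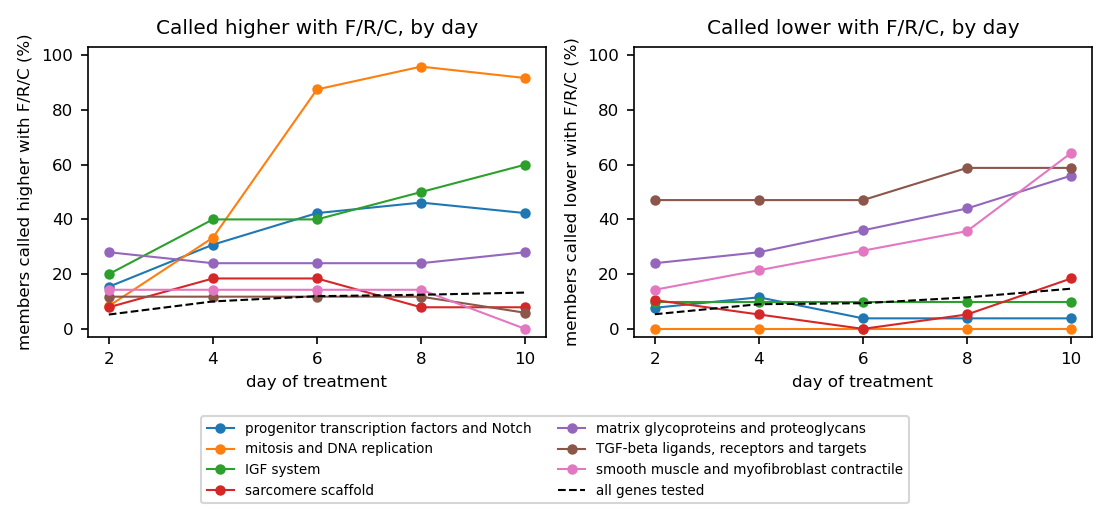
Share of the tested members of 7 gene lists called higher (left) or lower (right) with F/R/C on days 2, 4, 6, 8 and 10 (x axis, days of treatment; y axis, percent of members; dashed line, all genes tested). Mitosis genes climb from 2 to 22 of 24 on the left, and on the right smooth muscle genes climb from 2 to 9 of 14 while the TGF-beta list starts at 8 of 17.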

How the data were processed

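Poly-A RNA was sequenced from unsorted cells with stranded libraries, 100-base single-end reads, per the labels' protocols. Per the submitters' processing notes, the tools named were bcl2fastq 2.19, Trimmomatic 0.36, kallisto 0.44 and edgeR 3.28, with build GRCm38.p6; kallisto settings are not given in the sources used here. The authors deposited, per the file headers, estimated counts for each transcript, which are not normalised and divide a shared read between transcripts, and TPM values, which are scaled for length and hold no depth. Of 121843 transcripts, 121104 matched GENCODE M21 and 739 did not; matched ones held 99.5% to 99.7% of day 10 reads. The estimated counts deposited were added up within each of 35675 genes and rounded; near-identical genes stay uncertain, since 18816 genes had whole sums (within 0.001) in all 45 libraries and the others shared reads.

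The MEF and time-course libraries (33) were fitted together with edgeR 4.0.16 in R 4.3.3 (TMM, filterByExpr, glmQLFit, glmQLFTest) with a coefficient per group and the replicate number as a block (20 residual degrees of freedom). The comparison is defined as paired by number, hence the block; what the number marks is not given. DESeq2 1.42.0, other library sets, other scaling, no filter, no fold minimum and left-out libraries were alternatives. On simulated data of 16688 genes with 200 changed by 4-fold, 178 were recovered (89%) with 3 false calls. The 200 were drawn from genes with a mean of at least 20 fitted reads in the MyoD-alone libraries. No other gene was made to differ between the day 10 groups. Smaller changes, genes with fewer reads and a larger share of changed genes were not simulated. CPM values use TMM sizes; floors are 3 reads per library and cover counting error only. Standard errors are the size of the log2 change divided by the root of the F statistic. The members and lists were chosen with earlier results of these data known. Text genes are list members, the 10 called genes per direction with the largest fold change at 10 CPM or more, and the 10 with the largest CPM difference, of the same sign in all 3 pairs; not all of them are named, and some list members are counted but not reported by name here. Tables and plots used pandas and matplotlib.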

Additional observations from a re-analysis of the deposited data

How the results depend on the processing

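On day 10 the fit of 33 libraries with the block called 4665 genes, 2214 higher and 2451 lower. Without the replicate block the count was 4316 (2001 higher), in all 45 libraries without it 3958 (1882 higher), with the size factors of DESeq2 4660 (2245 higher), with DESeq2 itself 4676 (2247 higher) and without the filter on low counts 4773 (2058 higher). Fitted on the 6 libraries alone the count was 3025 with the replicate block (1303 higher) and 3145 without it (1405 higher); fewer samples then estimate the spread. Without a minimum fold change it was 9251 (4585 higher, 4666 lower). Leaving out a pair or a library gave 3987 to 5174 genes. Same-numbered libraries deviated from their group means with correlations of 0.28, 0.26 and 0.06. Unlike numbers gave -0.35 to 0.18, the highest for F/R/C library 1 with MyoD-alone library 3. F/R/C library 3 correlated best with MyoD-alone library 2 (0.08). By this measure the pair numbered 3 did not stand out from unlike numbers, though the sex-linked genes do set number 3 apart in both groups. Without the block Col6a1, Col6a3, Dcn, Dlk1, Mki67, Sox2, Tgfb2 and Xist lost their calls. The count of genes whose day 10 effect differed from that on day 8 was 0 under every alternative except without F/R/C library 3 on day 10, which gave 1; across the fits with a pair or library left out it was 0 to 1. Of the 187 genes followed, 130 were called; 93 kept their call under all 16 alternatives, 37 lost it under at least 1, and none of the 130 changed sign with a call. Of values not called, 29 passed under an alternative. Placing genes with no read in a group at their bound left the medians of the 3 lists concerned as given. The depth of 18.8 to 28.2 M reads limits Pax7, Myf5, Pvalb and Dbx1 in the MyoD-alone libraries to levels near or under 0.139 CPM, which is 3 reads per library.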

Other observations

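Imprinted genes, which are expressed from a single parental allele and many of which act in fetal growth, were among the genes with the largest gains of RNA on day 10. The list of 20 was chosen after the values were seen, and it has no test. Of these 10 were called higher with F/R/C and 1 lower, against 13.3% and 14.7% of all genes tested. The median log2 fold change was 1.07 against 0.0036 over all genes tested. Of the 10, Asb4, Dlk1 and Phlda2 lost their calls under 9, 6 and 3 of the 16 alternatives. Igf2, Ppp1r9a and Ndn lost theirs under 2, 2 and 1. Mest measured 852, 784 and 494 CPM with F/R/C and 7.41, 15.8 and 5.697 CPM without (log2 change 6.26 ± 0.72, adjusted p = 2.6e-07), and Plagl1, Cdkn1c and Igf2 are given above. The amino acid transporter gene Slc38a4 rose from 48.3, 14.5 and 46.5 CPM to 149, 131 and 151 CPM (log2 change 2.07 ± 0.40, adjusted p = 0.00014), and Ndn from 71.2, 56.1 and 53.1 CPM to 84.1, 209 and 218 CPM (log2 change 1.44 ± 0.31, adjusted p = 0.00036). Of the neighbours of these genes, H19, next to Igf2, measured 13022, 10043 and 12238 CPM with F/R/C and 7287, 13616 and 4929 CPM without and was not called (log2 change 0.50 ± 0.48, adjusted p = 0.39), and Slc22a18, next to Cdkn1c, was the lower gene (log2 change -2.86 ± 0.52, adjusted p = 7.3e-05). Differences between neighbouring genes were not tested. In the Dlk1 domain, Dlk1 was called (log2 change 1.37 ± 0.49, adjusted p = 0.022), but not without MyoD-alone library 3 (log2 fold change 0.89), and Meg3 was not (log2 change 0.36 ± 0.32, adjusted p = 0.36). Which parental allele was expressed was not measured.

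Among the 4 libraries numbered 1 or 2, Xist measured 643.6 and 695.0 CPM with F/R/C and 310.6 and 294.2 CPM with MyoD alone. The fitted difference over all 3 numbers was called (log2 change 1.09 ± 0.33, adjusted p = 0.0078). The call was lost under 8 of 16 alternatives, among them DESeq2 (0.92) and the fits without the replicate block (1.15), without the pair numbered 1 (1.12), without the pair numbered 2 (0.95) and without F/R/C library 2 (0.98).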
